A study of Mus musculus with 4 samples.

Results

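Box H/ACA small nucleolar RNAs and Cajal body RNAs were examined as a family in the embryonic mouse outflow tract, the arterial end of the heart from which the aortic and pulmonary roots form. The members were all genes whose mouse symbol is Snora or Scarna followed by a number, which gave 51 of the 45706 genes counted. There were 42 Snora genes and 9 Scarna genes, and they carried 49 distinct symbols because Snora16a and Snora43 each name a pair of gene identifiers, which are overlapping annotations of the same place. Membership rested on names and on no measured value.

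Total RNA was sequenced from outflow tracts of C57BL/6 embryos at embryonic day 12.5, either wild type (WT) or Sox17eKO. In Sox17eKO embryos an Nfatc1 enhancer drove the Cre recombinase that removed Sox17, the gene of an endothelial transcription factor, from aortic root endothelium, whereas the tissue sampled was the whole outflow tract. Each library was a pool of 10 hearts, with 2 libraries per genotype and 20 mice per genotype, and the labels give no treatment for either group. The genotypes were compared to look for SOX17 targets, by the submitters' account.

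Box H/ACA RNAs fold into a pair of hairpins joined by a hinge, the H box, and end in the letters ACA. Each is bound by dyskerin (Dkc1), Nop10, Nhp2 and Gar1, and its hairpin pockets pair with another RNA and place dyskerin, a pseudouridine synthase, on a chosen uridine. Snora RNAs act in the nucleolus, mostly on ribosomal RNA, whereas Scarna RNAs collect in Cajal bodies and act on spliceosomal RNAs. In mammals most of them are not transcribed on their own but are trimmed from the introns of host genes. Some Scarna RNAs belong to the box C/D type, which guides ribose methylation through fibrillarin, and others carry both kinds of domain.

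The sequences of 6 of the 7 members that differed between the genotypes are shown first, with the box letters found in each. They were read from GENCODE M21 transcripts (GRCm38, the assembly also named mm10) and are written 5′ to 3′ as DNA letters of the transcribed strand, which was the only strand searched. Capitals mark a terminal ACA, which stands 3 nucleotides from the end except in Snora28, where it is nearer the end. They also mark any ANANNA (the H box pattern, with N any base) inside the middle of the sequence, between 33.3% and 66.7% of its length. Scarna13 has no ANANNA in that window. Overlapping matches run together. In Scarna6 the capitals mark TGATGA and CTGA, the box C and box D letters.
Snora23: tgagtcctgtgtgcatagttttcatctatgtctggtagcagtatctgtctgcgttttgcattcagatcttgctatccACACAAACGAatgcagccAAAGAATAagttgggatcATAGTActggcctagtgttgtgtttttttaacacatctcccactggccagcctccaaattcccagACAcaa
Snora28: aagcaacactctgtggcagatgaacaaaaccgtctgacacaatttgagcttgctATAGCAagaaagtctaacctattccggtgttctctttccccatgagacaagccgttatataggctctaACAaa
Snora31: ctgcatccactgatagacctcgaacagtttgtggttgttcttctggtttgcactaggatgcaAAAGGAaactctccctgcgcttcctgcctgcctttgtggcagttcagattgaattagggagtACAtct
Snora2b: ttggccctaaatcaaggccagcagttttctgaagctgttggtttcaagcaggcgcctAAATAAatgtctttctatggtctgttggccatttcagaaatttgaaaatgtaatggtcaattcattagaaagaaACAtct
Scarna13: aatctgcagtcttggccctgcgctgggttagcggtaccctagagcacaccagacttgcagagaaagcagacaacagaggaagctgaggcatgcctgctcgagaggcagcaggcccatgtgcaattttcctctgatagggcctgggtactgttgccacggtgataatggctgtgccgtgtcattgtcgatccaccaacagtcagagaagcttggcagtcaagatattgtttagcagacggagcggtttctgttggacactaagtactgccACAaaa
Scarna6: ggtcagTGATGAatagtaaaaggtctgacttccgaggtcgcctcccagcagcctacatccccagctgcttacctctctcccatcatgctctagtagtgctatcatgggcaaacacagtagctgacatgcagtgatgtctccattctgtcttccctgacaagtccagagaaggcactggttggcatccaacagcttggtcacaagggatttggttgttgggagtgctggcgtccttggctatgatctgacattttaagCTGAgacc

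Across the family the terminal box was frequent and rare elsewhere. Of the 51 members, 37 (72.5%) had ACA exactly 3 nucleotides from the end, against 25 of 2133 other small RNA genes of 100 to 200 nucleotides (1.17%) and 0 of 99 Snord genes, the box C/D small nucleolar RNAs. The ANANNA pattern is loose: it was in that middle window in 88.2% of members and in 59.4% of the other small RNA genes. Both patterns stood together in 33 of 42 Snora genes (78.6%), in 1 of 9 Scarna genes and in 0.703% of the other small RNA genes. TGATGA in the first 20 nucleotides together with CTGA in the last 12 was found in 4 of the 9 Scarna genes, in none of the Snora genes and in 65 of 99 Snord genes (65.7%). The 4 were Scarna6, Scarna9, Scarna10 and Scarna17, so the Scarna names covered both box types. Scarna2, also a box C/D RNA, did not meet this pattern, so a Scarna gene outside the 4 is not thereby of the H/ACA type.

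Members were 70 to 414 nucleotides long, with a median of 133, and lay on 20 chromosomes. A counted gene of at least 300 exonic nucleotides on the same strand, here called the host, contained 42 of them. These were spread over 37 host genes. The host was protein-coding for 34 members, and 11 members lay in ribosomal protein genes. The 9 others had no host by this rule, among them Scarna2, Scarna13, Snora17, Snora57 and Snora78. Genes that were shorter or not counted were not considered as hosts.

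Detection fell into separate ranges. There were 28 members with 21 to 42011 reads in the 4 libraries together, 6 with 2 to 8 reads, and 17 with 0 reads. The range followed how each gene overlaps its neighbours. Of the 19 members that share no base with an annotated exon of another gene on their strand, 18 had more than 20 reads and 0 had none. Of the 12 that share part of their length, 6 had more than 20 reads. Of the 20 that lie wholly inside such an exon, 16 had 0 reads, counting the shorter Snora43 annotation, which lies inside the longer. The exceptions that lie wholly in an exon and were still well counted included Snora33 in Rps12, Snora28 in Eif5 and Snora7a in Rpl32. The member with no exon overlap and few reads was Snora35, with 8 reads, which lies in the serotonin receptor gene Htr2c.

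**Figure D1:**
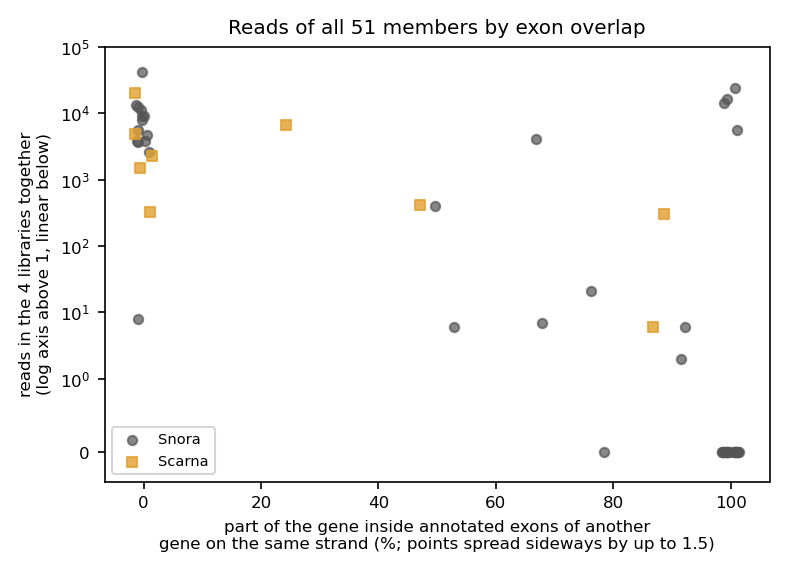
Reads of each of the 51 members summed over the 4 libraries (vertical axis, logarithmic above 1) against the percentage of the gene that lies inside annotated exons of another gene on the same strand (horizontal axis); circles are Snora genes and squares are Scarna genes. All 17 members at 0 reads sit at 77.9% overlap or more, and 18 of the 19 members without overlap have more than 20 reads.

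A similar but less complete split was present in the box C/D genes. Of 58 Snord genes without exon overlap, 39 had more than 20 reads and 18 had none, where 0 of the 19 such members had none. Of the 37 Snord genes that lie wholly in an exon, 30 had 0 reads. As background, HTSeq in its usual modes leaves out a read that fits exons of more than 1 gene and counts it as ambiguous, and such reads made up 3.38% to 6.22% of uniquely placed reads here. Its part in the zeros was not tested. No level is therefore given for the 17 members at 0. They include Snora24, Snora44, Snora61 and both Snora16a genes, which lie in the noncoding host genes Snhg8 and Snhg12, and Snora64, Snora65, Snora70, Snora52 and Snora3, which lie in the ribosomal protein genes Rps2, Rpl12, Rpl10, Rplp2 and Rpl27a. Because reads shared with an exon may have been set aside, a count of 0 sets no upper limit on these RNAs.

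The libraries held 12880081 and 8113463 reads assigned to genes in WT and 14306550 and 21883956 in Sox17eKO. Sox17, the targeted gene, was at 43.8% of WT in the fit (-1.19 on the log2 scale, edgeR adjusted p = 0.00574). Without WT replicate 2 it was at an edgeR adjusted p of 0.0519. Reads outside annotated features made up 20.4% to 22.2% of uniquely placed reads in WT and 29.5% to 34.1% in Sox17eKO. Markers of cardiomyocytes, smooth muscle, endothelium, cushion mesenchyme and epicardium were detected in every library. By edgeR 1 of 5 cardiomyocyte markers, 1 of 4 each for smooth muscle, endothelium and erythroid cells and 2 of 4 epicardial markers were lower, 1 of 4 mesenchyme markers was higher, and 0 of 4 macrophage and 0 of 4 liver markers were called. Of 4 markers each, erythroid genes summed to 2242 and 2764 counts scaled to library size (CPM) in WT and 1466 and 1920 in Sox17eKO, and liver genes to 71.3 and 11.5 in WT and 5.38 and 123 in Sox17eKO. Their part in the results on the members was not tested. Because these are bulk samples, fewer cells of a type and less RNA per cell cannot be told apart.

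Members took 54112 (replicate 1) and 39916 reads (replicate 2) of the WT libraries and 53233 and 83676 reads of the Sox17eKO libraries. As unscaled CPM of assigned reads this was 4201 and 4920 in WT and 3721 and 3824 in Sox17eKO. The sum of all other genes under 300 nucleotides stood in the same order, at 123541 and 141044 CPM in WT and 105923 and 107763 in Sox17eKO, and so did that of the Snord genes, at 10299 and 12725 against 9313 and 9712. WT replicate 2, the library with the fewest assigned reads, was the highest in these 3 sums. MicroRNA genes stood otherwise, at 243 and 231 CPM in WT and 314 and 260 CPM in Sox17eKO, with WT replicate 2 the lowest.

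After TMM scaling, which corrects library sizes for composition, the summed level of the members was 19.1% lower in Sox17eKO, at 3738 ± 95.5 CPM against 4623 ± 603 for WT (mean ± SD over n = 2 libraries each). The libraries did not overlap, with the WT sums at 4197 and 5050 and the Sox17eKO sums at 3671 and 3806. The 2 against 2 design cannot give an exact permutation p under 0.33, so no test was made of this sum. The ratio of Sox17eKO to WT was 0.809 with all libraries, 0.891 when WT replicate 2 was left out and 0.740 when WT replicate 1 was.

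The level of a gene per length is CPM per kilobase of its transcript, and all levels compared between genes are on that scale. Snora73b was the most abundant member, at a mean of 3750 CPM per kilobase over the 4 libraries. It is the RNA also called U17 or E1, which acts in the cleavage of the small-subunit ribosomal RNA precursor and is not known as a pseudouridylation guide, and it took 17.6% to 19.3% of all member reads. Snora7a, in the ribosomal protein gene Rpl32, followed at 3089, and Snora68 at 2270. Next in order were Snora28 at 2053, Snora20 at 1762, Snora57 at 1626, Snora62 at 1368, Snora31 at 1262, Snora17 at 1090 and Snora23 at 917. Neighbours in this order often overlapped between libraries: in the WT libraries Snora62 and Snora31 covered intersecting ranges, as did Snora28 and Snora68. Tested Scarna RNAs ran from 872 for Scarna2, a box C/D RNA, down to 39.9 for Scarna3b.

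**Figure D2:**
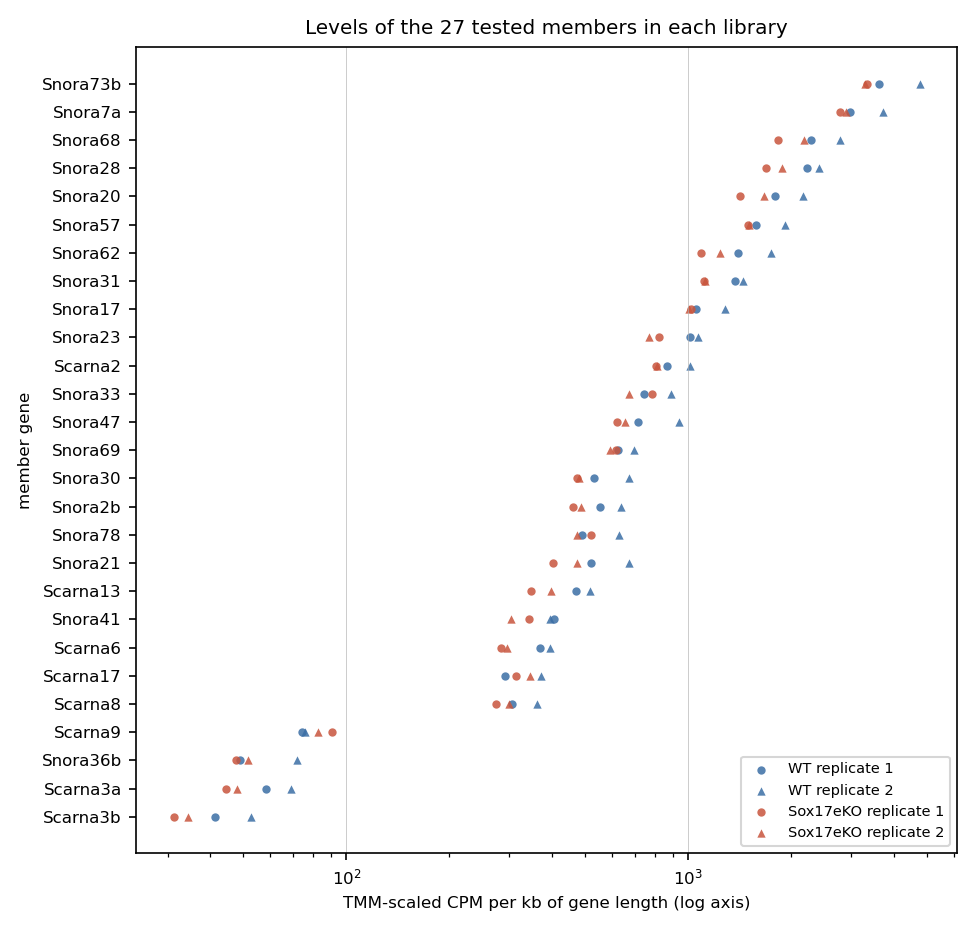
Level of each of the 27 tested members in each library, in TMM-scaled CPM per kilobase on a logarithmic axis; blue marks are WT and red marks are Sox17eKO, with a circle for replicate 1 and a triangle for replicate 2. Members span from Scarna3b at 39.9 to Snora73b at 3750 on average, and the blue triangle of WT replicate 2 is the rightmost mark for 25 of them.

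Snora73b has a neighbour, Snora73a, and both were assigned to the host Rcc1, the gene of the exchange factor of the GTPase Ran. The pair is printed because the genes are nearly identical while their counts are not. Capitals mark the ANANNA match in the middle window and the terminal ACA.
Snora73b: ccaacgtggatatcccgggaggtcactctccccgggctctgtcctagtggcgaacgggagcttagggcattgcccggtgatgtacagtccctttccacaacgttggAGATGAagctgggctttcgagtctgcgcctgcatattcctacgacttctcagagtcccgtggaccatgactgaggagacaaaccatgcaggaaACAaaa
Snora73a: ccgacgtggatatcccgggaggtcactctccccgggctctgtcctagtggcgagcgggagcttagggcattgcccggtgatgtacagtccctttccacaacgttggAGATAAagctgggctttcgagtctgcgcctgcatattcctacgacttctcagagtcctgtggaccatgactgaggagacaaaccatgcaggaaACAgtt

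They lie at chr4:132352322-132352526 and chr4:132352775-132352979, both on the minus strand of GRCm38, and are 96.6% identical over 205 nucleotides. Written with the Snora73b base first and counted from the 5′ end, the 7 differences are A3G, A54G, G111A, C164T, A203G, A204T and A205T. Snora73b had 9550 and 7706 WT reads and 9937 and 14818 Sox17eKO reads, where Snora73a had 3 and 2 against 8 and 8. A read from a stretch that both share has no unique place, and non-unique alignments were not assigned to genes in this table, so the division of reads between the pair is uncertain. Snora73a also has 77.6% of its length in an annotated exon of Snhg3 on its strand, where Snora73b has no exon overlap, and the part of either in the gap between their counts was not tested. Scarna3a and Scarna3b (85.7% identical) were the other close copies at separate places.

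For the comparison of genotypes, 27 members had enough reads to be tested and 24 did not. The 24 were the 23 members with at most 8 reads and Snora73a, so the results below describe the members that were counted and not the whole family. Genes were called changed at a Benjamini-Hochberg adjusted p under 0.05 in edgeR's quasi-likelihood test over all 16570 genes that could be tested, of which 5.35% were called in either direction and 1.22% were called lower in Sox17eKO.

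Of the 27 tested members, 7 (25.9%) were lower in Sox17eKO and 0 were higher. They were Snora62, Snora23, Snora28, Snora31, Snora2b, Scarna13 and Scarna6, and their fitted levels were 74.3% to 79.7% of WT. With limma-voom 7 members were called lower and 0 higher. DESeq2 called 9 members lower and 0 higher. It gave no adjusted p to Scarna9 and Scarna17, the only members with estimates above 0, so it could not have called a member higher. Scarna3a, Scarna3b and Snora36b had no adjusted p from DESeq2 either. An unadjusted edgeR p under 0.05 was found for 21 of the 27, against 3471 of all 16570 tested genes. Each Sox17eKO library lay below each WT library for 22 of the 27, against 26.2% of all tested genes. That share was 37.7% for the other tested genes under 300 nucleotides and 37.5% for Snord genes. It was 52.0% for the other genes annotated as small nucleolar or Cajal body RNAs. The median log2 fold change of the tested members was -0.33, or 79.7% of WT, against -0.01 over all tested genes.

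These calls depended on single libraries. Without WT replicate 2 none of the 27 members was called by edgeR, with 9 at an unadjusted p under 0.05 and a median log2 fold change of -0.16. Without Sox17eKO replicate 1 the calls were Scarna6 and Snora23. Without WT replicate 1 there were 18 and without Sox17eKO replicate 2 there were 10, and each of these included the 7. When only genes under 300 nucleotides were scaled and tested together, 0 of 26 members were called, 0 had an unadjusted edgeR p under 0.05 and the median was -0.10, so the members were not shown to differ from other short genes.

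Snora62, also called E2, lies in Rpsa, the gene of a small-subunit ribosomal protein. Its level was 208 and 261 CPM in the WT libraries and 163 and 184 CPM in the Sox17eKO libraries. The difference on the log2 scale was -0.43 (SE 0.10, edgeR adjusted p = 0.0243). Both Sox17eKO values lay below both WT values, and the WT libraries differed from each other by more than the gap between the nearest libraries of the genotypes. Rpsa itself was at -0.13 on the log2 scale (edgeR adjusted p = 0.334).

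Snora23 lies in Ipo7, the gene of a nuclear import receptor, at chr7:110046364-110046547 on the plus strand. Its level was 186 and 196 CPM in WT and 151 and 141 CPM in Sox17eKO, a difference of -0.39 on the log2 scale (SE 0.08, edgeR adjusted p = 0.00654). Here the libraries of a genotype were close to each other and the genotypes lay apart. Ipo7 was nearly level, at 0.01 on the log2 scale.

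Snora28 lies in Eif5, a translation initiation factor gene, at chr12:111540941-111541067 on the plus strand, wholly inside an annotated Eif5 exon. Its level was 283 and 307 CPM in WT and 214 and 239 CPM in Sox17eKO. The difference on the log2 scale was -0.38 (SE 0.08, edgeR adjusted p = 0.0120), with no overlap between the genotypes, while Eif5 was at -0.05.

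Snora31 lies in Tpt1, which encodes the translationally controlled tumour protein, at chr14:75847905-75848034 on the plus strand. It was at 178 and 188 CPM in WT and at 144.9 and 145.2 CPM in Sox17eKO, -0.33 on the log2 scale (SE 0.07, edgeR adjusted p = 0.0140). The libraries of each genotype stood close together. Tpt1 was at -0.17 (edgeR adjusted p = 0.481), and without WT replicate 1 it was called lower, at -0.40 (edgeR adjusted p = 0.0126), whereas without WT replicate 2 it was at 0.061.

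Snora2b lies in Kansl2, a subunit gene of a histone acetyltransferase complex, at chr15:98526346-98526482 on the minus strand. It was at 75.9 and 87.4 CPM in WT and at 63.1 and 66.4 CPM in Sox17eKO, -0.33 on the log2 scale (SE 0.09, edgeR adjusted p = 0.0310). This call held least often of the 7: it was kept under 5 of 9 alternatives that kept all libraries, where each of the other 6 was kept under 8. Kansl2 was at 0.25 on the log2 scale (edgeR adjusted p = 0.261), opposite in sign to Snora2b, 67.2% of which lies in an annotated Kansl2 exon.

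Scarna13, the Cajal body RNA also called U93, lies at chr12:105031075-105031349 on the minus strand and had no host by the rule used. Its level was 129 and 142 CPM in WT and 95.4 and 109 CPM in Sox17eKO. The difference on the log2 scale was -0.40 (SE 0.08, edgeR adjusted p = 0.00861), and the genotypes did not overlap.

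Scarna6, also called U88, lies in Atg16l1, an autophagy gene, at chr1:87784556-87784820 on the plus strand. It was at 97.6 and 104 CPM in WT and at 75.3 and 78.3 CPM in Sox17eKO, -0.39 on the log2 scale (SE 0.08, edgeR adjusted p = 0.00675). The RNA and its host had opposite signs, with Atg16l1 at 0.30 (edgeR adjusted p = 0.0553).

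**Figure D3:**
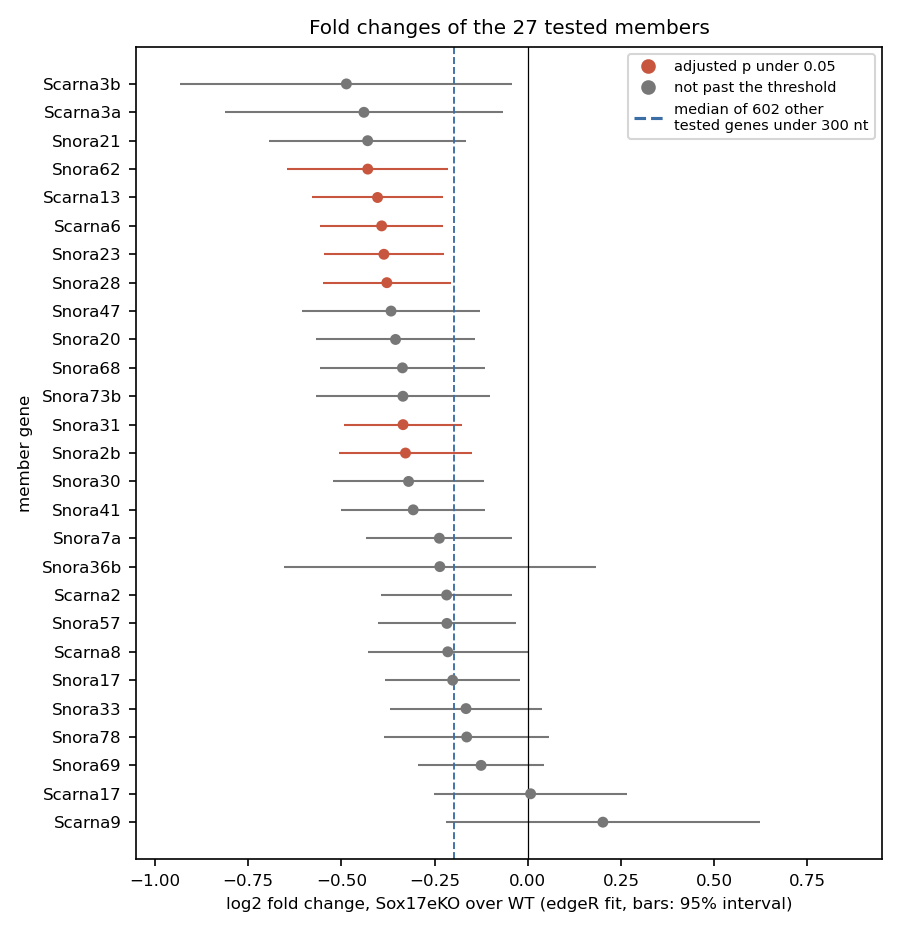
Log2 fold change of each tested member, Sox17eKO over WT, from the edgeR fit with its 95% interval; red marks the 7 members with an adjusted p under 0.05 and grey the 20 others, and the dashed line is the median of 602 other tested genes under 300 nucleotides. All members but Scarna17 (0.01) and Scarna9 (0.20) lie left of 0, and the dashed line stands at -0.20. Estimates lay below 0 for 92.6% of tested members and 51.8% of all tested genes. The share was 91.7% for Snord genes and 77.2% for other genes annotated as small nucleolar or Cajal body RNAs. It was 70.9% for the 602 other genes under 300 nucleotides and 27.3% for microRNA genes.

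The 20 members that were not called ranged from -0.49 to 0.20 on the log2 scale, and for 14 of them the 95% interval of the difference lay wholly below 0. The estimates furthest below 0 came with few reads. Scarna3b, in Dcaf5, was at 5.74 and 7.34 CPM in WT and 4.34 and 4.78 CPM in Sox17eKO, -0.49 on the log2 scale (95% interval -0.93 to -0.04, edgeR adjusted p = 0.193). Its close copy Scarna3a, in the ubiquitin ligase gene Cop1, was at 8.14 and 9.61 CPM in WT and 6.21 and 6.69 CPM in Sox17eKO, at -0.44 (edgeR adjusted p = 0.157). Both rested on 58 to 147 reads per library.

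Several abundant Snora RNAs just missed the threshold. Snora20, in the chaperonin gene Tcp1, was at 229 and 278 CPM in WT and 181 and 214 CPM in Sox17eKO (log2 fold change -0.35, edgeR adjusted p = 0.0519). Snora21, in the ribosomal protein gene Rpl23, was at 71.0 and 91.7 CPM in WT and 55.1 and 64.6 CPM in Sox17eKO (-0.43, edgeR adjusted p = 0.0638). Both had WT libraries that lay further apart than those of Snora23 or Snora31. Snora68 (-0.34, edgeR adjusted p = 0.0738), Snora47 (-0.37, edgeR adjusted p = 0.0761), Snora30 (-0.32, edgeR adjusted p = 0.0622) and Snora41 (-0.31, edgeR adjusted p = 0.0576) had the same direction without overlap between the genotypes.

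The most abundant member, Snora73b, was at 741 and 975 CPM in WT and 685 and 674 CPM in Sox17eKO. Its difference was -0.33 on the log2 scale (SE 0.11, 95% interval -0.57 to -0.10, edgeR adjusted p = 0.0900). WT replicate 2 stood far above the other 3 libraries, and WT replicate 1 was near the Sox17eKO values. Snora7a had the same shape, at 417 and 519 CPM in WT and 389 and 405 CPM in Sox17eKO (-0.24, edgeR adjusted p = 0.146). So had Snora57, at 234 and 284 against 221 and 223 CPM (-0.22, edgeR adjusted p = 0.158).

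Among the other Scarna RNAs, Scarna2, the longest member, was at 358 and 419 CPM in WT and 333 and 335 CPM in Sox17eKO (log2 fold change -0.22, edgeR adjusted p = 0.138). Scarna8, also called U92, in the augmin subunit gene Haus6, was at -0.21 (edgeR adjusted p = 0.237). Scarna17, a box C/D member, overlapped between the genotypes, at 23.0 and 29.4 CPM in WT and 24.8 and 27.2 CPM in Sox17eKO, with a 95% interval of -0.25 to 0.27 on the log2 scale. Scarna9, another with box C and D letters, was the single member with both Sox17eKO libraries above both WT libraries, at 5.20 and 5.31 CPM in WT and 6.34 and 5.78 CPM in Sox17eKO (log2 fold change 0.20, 95% interval -0.22 to 0.62, edgeR adjusted p = 0.618). The tested Scarna genes had a median log2 fold change of -0.30 and the tested Snora genes -0.33, with 2 of 8 and 5 of 19 called lower.

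The members moved together between libraries of 1 genotype as well as between genotypes. WT replicate 2 was above WT replicate 1 in 26 of the 27 and was the highest library in 25. The median log2 ratio of WT replicate 2 to WT replicate 1 was 0.28 over the members and 0.0012 over all tested genes, and that of Sox17eKO replicate 2 to replicate 1 was 0.06 against -0.0073. Sox17eKO replicate 1 was the lowest library for 18 members, Sox17eKO replicate 2 for 7 and WT replicate 1 for 2. The difference between the WT libraries was thus nearly as large as that between the genotypes.

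**Figure D4:**
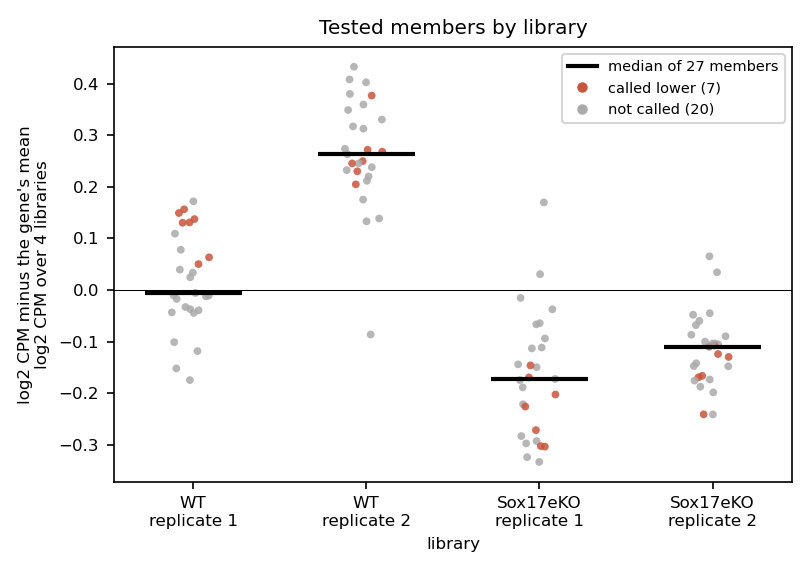
Each of the 27 tested members as a point in each library, in log2 CPM minus the mean log2 CPM of that member over the 4 libraries; red points are the 7 called members, grey points the other 20, and bars are medians over the 27. The medians, replicate 1 before replicate 2, are -0.01 and 0.26 in WT and -0.17 and -0.11 in Sox17eKO.

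The same direction was found in other short RNAs. Of 602 tested genes under 300 nucleotides that are not members, 38 (6.31%) were called lower and 4 higher, with a median log2 fold change of -0.20, and their median log2 ratio of WT replicate 2 to WT replicate 1 was 0.22. Snord genes had 3 of 48 called lower (6.25%), a median of -0.24 and a WT ratio of 0.37. The 123 other tested genes annotated as small nucleolar or Cajal body RNAs, most with predicted names, had 22 called lower (17.9%) and a median of -0.25. MicroRNA genes, whose precursors are processed by another route, lay the other way: 1 of 33 was called higher and 0 lower (4 had an unadjusted edgeR p under 0.05), with a median of 0.10. Protein-coding genes had a median of -0.01.

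Host genes did not share the direction of the RNAs inside them. Of 36 tested hosts, 2 were called higher and 0 lower, with a median log2 fold change of -0.03. The 2 were Cop1, at 0.39 (edgeR adjusted p = 0.0309), which hosts Scarna3a, and Cep295, a centrosome gene, at 0.32 (edgeR adjusted p = 0.0309), which hosts Scarna9. Neither was called by DESeq2, without WT replicate 2 or without Sox17eKO replicate 1. Members in ribosomal protein hosts had a median of -0.29 (1 of 6 called lower), those in other hosts -0.33 (5 of 15) and those without a host -0.21 (1 of 6).

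Whether a member changed beyond its host was tested in an edgeR fit with the host level of each library as an offset, over 245 short genes nested in a longer tested gene. Of these, 1.63% were called lower relative to the host. None of the 21 members was called by edgeR or by limma on the log2 ratio. An unadjusted edgeR p under 0.05 was found for 5 of them, against 42 of all 245 nested genes. The estimate was below 0 for 20 of 21 members, for 176 of all 245 nested genes and for 36 of 44 nested Snord genes. The median was -0.29 for the members, against -0.20 over all nested genes and -0.18 for the Snord genes. Scarna3a relative to Cop1 was at -0.85 (edgeR adjusted p = 0.0661), Scarna6 relative to Atg16l1 at -0.69 (edgeR adjusted p = 0.0661), and Snora30 relative to Srcap, the gene of a chromatin remodeller, at -0.69 (edgeR adjusted p = 0.0799). Snora2b relative to Kansl2 was at -0.58 (edgeR adjusted p = 0.157) and Snora23 relative to Ipo7 at -0.39 (edgeR adjusted p = 0.270). The exception among the members was Snora69 in Rpl39, which was at -0.13 while its host was at -0.19.

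**Figure D5:**
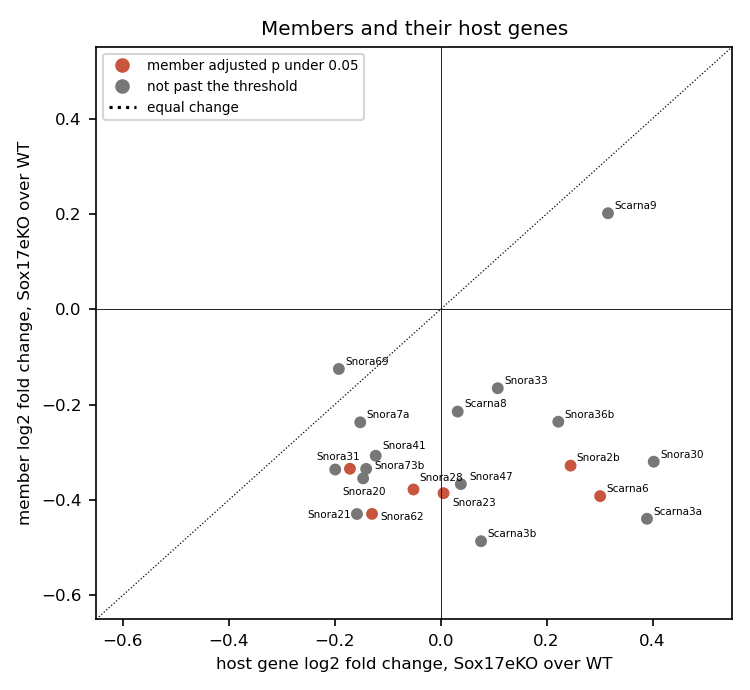
Log2 fold change of each of the 21 nested members (vertical axis) against that of its host gene (horizontal axis), Sox17eKO over WT; the dotted line marks equal change and red marks the called members; 1 point carries no name. Points lie below the dotted line for 20 of the 21, and the hosts spread to both sides of 0 around a median of -0.03 over all tested hosts. Relative to the host, 176 of all 245 nested short genes had estimates below 0.

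The proteins that carry, assemble and mature these RNAs were examined as well, in lists chosen for their known roles. Of 44 tested genes, 1 was called higher and 0 lower by edgeR, DESeq2 and limma-voom alike, and 7 had an unadjusted edgeR p under 0.05. Among the core proteins, the pseudouridine synthase Dkc1 was at 62.1 and 60.9 CPM in WT and 57.0 and 57.3 CPM in Sox17eKO (log2 fold change -0.11, edgeR adjusted p = 0.477). Nop10, which braces dyskerin, was at 71.6 and 82.1 CPM in WT and 65.9 and 64.7 CPM in Sox17eKO (-0.23, edgeR adjusted p = 0.119). Nhp2, which binds the guide RNA, was at 48.9 and 47.7 CPM in WT and 38.7 and 41.1 CPM in Sox17eKO (-0.28, edgeR adjusted p = 0.0821). Gar1, which affects product release, overlapped between the genotypes (-0.04, reversing to 0.19 without WT replicate 2). The first 3 of these were lower in both Sox17eKO libraries, and none passed the threshold.

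Assembly factors were nearly level: Naf1, which holds the place of Gar1 early on, was at 0.10 (edgeR adjusted p = 0.821, reversing to -0.02 without Sox17eKO replicate 1), Shq1, a dyskerin chaperone, at 0.14 (edgeR adjusted p = 0.636), and the ATPases Ruvbl1 and Ruvbl2 at -0.05 and -0.09. Of 8 tested Cajal body and SMN complex genes none was called, and Coil, the gene of the Cajal body scaffold coilin, was at 5.12 and 8.22 CPM in WT and 4.34 and 4.59 CPM in Sox17eKO (-0.52, edgeR adjusted p = 0.202). The single call was Zcchc7, a zinc-knuckle subunit of the nuclear complex that adds short tails to RNAs for trimming or decay. It rose from 42.2 and 34.3 CPM in WT to 59.4 and 52.6 CPM in Sox17eKO (0.53, edgeR adjusted p = 0.00538), and it was not called without WT replicate 2 (edgeR adjusted p = 0.0723). The other 10 of 11 genes for the maturation and decay of RNA ends, all 11 synthases that work without a guide RNA and the 4 core proteins of the box C/D particle were not called.

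Telomerase RNA, Terc, which carries an H/ACA domain and binds the same core proteins but is not named as a member, was at 13.2 ± 0.18 CPM in WT and 11.3 ± 0.79 CPM in Sox17eKO (mean ± SD over 2 libraries), a difference of -0.21 on the log2 scale (edgeR adjusted p = 0.412). It lay in the direction of the members, without passing the threshold. Tert, the telomerase reverse transcriptase, was at 0.29 (edgeR adjusted p = 0.380).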

How the data were processed

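Libraries were Illumina strand-specific ones from TRIzol-extracted total RNA, per the labels' protocols. The deposited values are counts of reads for each Ensembl gene, with no normalization by the authors. The submitters' processing notes name TopHat2, HTSeq and mm10; their versions, the annotation release, the strand setting, the counting mode and the fragment sizes kept are not given in the sources used here. Short RNAs may be recovered only in part by such libraries, which bears on all levels given. Groups came from sample titles.

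Symbols, coordinates, exons and sequences came from GENCODE M21, which may differ from the authors' release; 45143 gene identifiers matched and 563 did not. The 5 HTSeq summary rows were left out. The sequence of 1 called member and 1 host gene are not reported here. Libraries of 1 genotype differed beyond sampling noise (chi-square over its degrees of freedom: 4.77 for WT, 6.01 for Sox17eKO). Whether the pools came from separate litters is not stated, so p-values measure only the spread between these pools.

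The test was edgeR 4.0.16 in R 4.3.3 (robust quasi-likelihood, TMM, filterByExpr, prior count 0.125, genotype as the only term) with Benjamini-Hochberg adjustment over all genes tested. A host was a counted gene of at least 300 exonic nucleotides whose span contains the member on the same strand. Where several genes met this rule, the host was the one with the highest mean count. Whether it is the gene each RNA is cut from was not tested. The scripts were tested on simulated data. Alternatives were DESeq2 1.42.0, limma-voom (limma 3.58.1), other scalings and filters, the fit without the robust option, a replicate block, genes under 300 nucleotides only, and each library left out.

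The members, the gene lists and the tests were chosen with earlier results of these data known. Named were the called members, the 12 most abundant per kilobase, the 5 largest and 5 smallest fold changes, every tested Scarna gene, the 5 nested members with the smallest p relative to the host, hosts, H/ACA core and assembly genes, called genes of other lists, and Sox17. Snora7a, Snora47, Snora69, Snora33, Coil, Terc, Tert, the untested members and the structural RNAs were, where outside that rule, named after their values were seen.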

Additional observations from a re-analysis of the deposited data

How the results depend on the processing

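With 2 libraries per genotype the precision is limited by their number, and the 17 members at 0 reads could not be assessed. Of the 27 members tested, the 7 called lower (0 to 18 when each library was left out) became 14 without a filter on low counts and 0 among genes under 300 nucleotides only (0 at an unadjusted p under 0.05). Over all genes, 684 were higher and 202 lower. These became 294 and 96 with DESeq2, 0 and 1 among genes under 300 nucleotides only, and 172 to 756 higher and 20 to 463 lower when each library was left out. Scaling by library size only gave 769 higher and 111 lower, so 87.4% of calls were higher against 77.2%, and the count of lower calls was 387 without a filter and 105 without the robust option. Pathway genes called higher numbered 0 to 2 and lower 0 to 2 when each library was left out. Members called lower relative to the host numbered 0 to 1. Sox17 had a log2 fold change of -1.20 with DESeq2, which gave it no adjusted p, and -1.29 to -1.11 when each library was left out, the smallest being without WT replicate 2, where it was not called. The cause of these shifts was not tested, apart from fewer genes or samples by construction.

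The deviations of same-numbered libraries had r = -0.03 over 16570 genes and 0.365 over the 27 members, and no label says that a number marks a shared litter or batch, so the numbers were not taken to pair the libraries. With a replicate block 15 members were called lower, among them the 7, and 1107 genes were higher and 577 lower, with 2 pathway genes higher and 1 lower (Nhp2, edgeR adjusted p = 0.0465).

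Among genes under 300 nucleotides only, the estimates of 7 uncalled members turned positive: Snora7a to 0.00080, Snora57 to 0.018, Snora17 to 0.032, Snora33 to 0.067, Snora69 to 0.10, Snora78 to 0.069 and Scarna8 to 0.011. With the block Scarna17 was at -0.0013. Leaving out each library in turn moved these uncalled genes across 0 on the log2 scale: Scarna17 from -0.17 to 0.18, Snora78 from -0.35 to 0.020, Snora36b from -0.53 to 0.032, Gar1 from -0.30 to 0.19 and Naf1 from -0.023 to 0.24. Among the hosts, Eif5 ranged from -0.15 to 0.058, Rcc1 from -0.30 to 0.013, Haus6 from -0.10 to 0.21, Dcaf5 from -0.014 to 0.15, Tpt1 from -0.40 to 0.061 and Ipo7 from -0.034 to 0.046.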

Other observations

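Most other structural RNAs lay in the direction of the members, in a list put together with the results on the members known. Rnu12 and Rnu11, RNAs of the minor spliceosome, which removes a rare class of introns, were lower. Rnu12 was at 5226 and 6011 CPM in WT and 3838 and 4511 CPM in Sox17eKO (log2 fold change -0.43, edgeR adjusted p = 0.0191). Rnu11 was at 2105 and 2245 CPM against 1752 and 1721 CPM (-0.32, edgeR adjusted p = 0.0308). Rnu5g, a U5 gene, was at 13.9 and 15.4 CPM against 10.4 and 9.87 CPM (-0.53, edgeR adjusted p = 0.0349). Rpph1, the RNA of ribonuclease P, which trims transfer RNA precursors, fell by 0.42 on the log2 scale (edgeR adjusted p = 0.0230). The Y RNAs Rny1 and Rny3, partners of the Ro protein, fell by 0.41 (edgeR adjusted p = 0.0268) and 0.43 (edgeR adjusted p = 0.0267). Apart from Rpph1, the RNAs named in this paragraph are under 300 nucleotides long. When only genes under 300 nucleotides were scaled and tested together, 1 gene of any kind was called lower. At most 1 of these shorter RNAs was therefore called there. How these calls fared with each library left out is not given.

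Rmrp, the RNA of the related ribonuclease MRP, was at 16104 and 17766 CPM in WT and 14386 and 14616 CPM in Sox17eKO (log2 fold change -0.22, edgeR adjusted p = 0.197). Rn7sk, which holds back a transcription elongation factor, was at -0.24 (edgeR adjusted p = 0.155) with its WT libraries close together at 23278 and 23478 CPM. Vaultrc5, a vault RNA, was at -0.21 (edgeR adjusted p = 0.166). All 3 had both Sox17eKO libraries below both WT libraries. Rnu73b, at 0.03, and Rnu6, at -0.31 with 5 to 18 reads per library (edgeR adjusted p = 0.804), had overlapping libraries. Whether these RNAs and the members moved with the share of short RNA in each library was not tested.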
